A study of Mus musculus with 9 samples.

Results

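The 10 genes described here are core genes of the mammalian circadian clock, read in mouse heart 24 h after a coronary occlusion and reperfusion. They were taken by symbol (Arntl, Clock, Per1, Per2, Per3, Cry1, Cry2, Nr1d1, Nr1d2 and Dbp), and each matched 1 row of the 54532 genes of the count table. All 10 passed the filter on low counts in each comparison. The study asked which heart genes change after myocardial ischemia/reperfusion injury (MIRI) and which of them respond to Guanxinning injection (GXNI), a herbal preparation given for coronary disease. Bulk RNA of heart tissue was sequenced in 3 groups of 3 libraries each, and all the mice were wild-type male C57BL/6J, 8 to 10 weeks old and kept in a 12-h light and dark cycle. MIRI and GXNI mice had the left anterior descending coronary artery tied for 30 min and then 24 h of reperfusion. GXNI mice received 9 mL/kg of GXNI, and MIRI mice saline, by the tail vein within 10 min of ischemia. Sham mice had the chest opened and the suture passed but not tied. The study's methods state that every group had a tail-vein injection of drug or saline. Below, operated means MIRI and GXNI only, the mice with the artery tied, although sham mice had surgery too. The hour of day at which the hearts were collected is not given in the sources used here, so that time of day and group cannot be told apart for any value below. Levels are CPM, counts scaled to the size of the library, after trimmed-mean (TMM) normalisation.

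The clock is a loop of transcription and repression that runs in nearly every cell, cardiomyocytes included. ARNTL (BMAL1) and CLOCK form the activator that binds E-boxes and drives the Per and Cry genes, whose proteins return to inhibit it. The same activator drives Nr1d1 and Nr1d2, which encode the REV-ERB repressors, and these act through ROR elements (ROREs) to repress Arntl. DBP is an output of the loop, a PAR-bZIP factor that acts through D-boxes. Because of this wiring, Arntl and the E-box genes Dbp, Per3 and Nr1d2 peak at opposite phases of the day in most tissues.

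Promoter windows of 300 bases, 250 before to 50 from the start site, were taken from RefSeq on GRCm38.p6, the assembly that mm10 in the submitters' processing notes stands for. A window was found for 9 of the 10 genes (13 windows), and Per2 had no entry. Both strands were searched for the E-box (CACGTG), the E-prime-box (AACGTG, or CACGTT on the other strand), the D-box (TTATGCAA or TTATGTAA), the cAMP response element (TGACGTCA) and the RORE. The 3 windows below are shown because they carry a RORE or a D-box, the element of the repressing and the output limb. Capitals mark the motifs, and each sequence reads 5′ to 3′ on the strand of its gene.
Arntl, chr7:113207261-113207560, plus strand: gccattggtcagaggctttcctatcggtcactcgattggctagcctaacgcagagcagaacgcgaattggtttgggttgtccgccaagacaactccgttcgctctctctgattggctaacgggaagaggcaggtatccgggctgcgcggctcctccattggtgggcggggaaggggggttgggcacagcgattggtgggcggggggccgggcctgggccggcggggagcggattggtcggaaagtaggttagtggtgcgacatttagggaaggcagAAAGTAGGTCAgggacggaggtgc
Per1, chr11:69098699-69098998, plus strand: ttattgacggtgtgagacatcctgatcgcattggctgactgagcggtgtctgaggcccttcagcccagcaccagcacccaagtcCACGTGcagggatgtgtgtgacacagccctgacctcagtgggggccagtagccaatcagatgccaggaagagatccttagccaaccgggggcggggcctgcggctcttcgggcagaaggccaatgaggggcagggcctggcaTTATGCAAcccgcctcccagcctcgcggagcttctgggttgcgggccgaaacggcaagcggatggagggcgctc
Per3, chr4:151044616-151044915, minus strand: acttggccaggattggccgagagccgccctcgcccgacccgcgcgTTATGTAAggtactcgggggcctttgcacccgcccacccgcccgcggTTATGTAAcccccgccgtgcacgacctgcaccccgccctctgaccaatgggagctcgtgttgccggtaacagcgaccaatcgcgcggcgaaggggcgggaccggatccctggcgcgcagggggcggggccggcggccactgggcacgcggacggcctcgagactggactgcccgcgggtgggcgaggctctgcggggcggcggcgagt
The Arntl window shown held the RORE at positions 27 to 37, counted from 1 at the start site. The similar stretch aaagtaggtta before it ends in GGTTA and not GGTCA, so it was not counted or marked. Per1 held an E-box at -166 to -161 and a D-box at -24 to -17, and Per3 held D-boxes at -205 to -198 and at -158 to -151. Arntl and Per1 each had another window, not shown, that held none of the motifs. Cry1 also held an E-box and an E-prime-box, and Cry2 and Nr1d1 an E-prime-box. No letters of these motifs were found in the windows of Clock, Nr1d2 and Dbp. Of all 32851 windows, 7.15% held the E-box, 4.68% the E-prime-box, 1.66% the D-box, 1.79% the cAMP response element and 0.384% the RORE. These matches describe letters only, and sequence outside the windows was not searched for any gene, the E-box genes Dbp, Per3 and Nr1d2 included.

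The libraries held 17119454 to 22811295 counts, of which 23.0% to 29.8% were mitochondrial. The labels name cardiomyocytes, and the 8 cardiomyocyte markers summed to at least 26548 CPM in each library, with none at 0. Markers of other cells were present too, with fibroblast markers at 472 to 1114 CPM and endothelial markers at 572 to 1049 CPM over the 9 libraries, so RNA of other cells was in the libraries. Mesothelial markers summed to 64.1 CPM in GXNI 1 and to 7.61 to 22.8 CPM in the other libraries. By the mean log2 CPM of their lists, atrial (1.39) and adipocyte markers (2.0) were highest in MIRI 2. Most of those markers held few counts, and Nppa and Fabp4 were not highest there. The 6 operated libraries did not sort by label. On the first principal component of 15207 genes, which held 64.7% of the variance, the sham libraries lay between -59.8 and -52.2. The libraries labelled MIRI 2 (-44.4) and GXNI 1 (-43.5) lay next to them, GXNI 2 was at 18.7, and MIRI 1 (61.6), MIRI 3 (83.2) and GXNI 3 (94.4) lay far from them. The library closest to GXNI 3 was MIRI 3, and the one closest to MIRI 2 was GXNI 1. The study's supplementary gene tables, when their fold changes were set beside fits of these counts, also followed a grouping with these labels exchanged and not the deposited one. The labels of MIRI 2 and GXNI 3 are therefore in doubt, and were kept as deposited. The comparison of all 6 operated libraries with sham does not depend on them. Results that rest on these libraries are given also without both. That choice follows their values, so the fits without them are descriptions of the remaining libraries and not independent tests of GXNI. Nothing in the labels says that the 3 mice of a group came from separate litters or days, and the p-values measure only the spread between these samples.

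The first comparison asked what ischemia and reperfusion left in the clock, with the 6 MIRI and GXNI libraries pooled against sham. Arntl was higher in all 6, Per3, Cry2, Nr1d2 and Dbp were lower in all 6, and the other 5 genes overlapped between groups. Over all genes, 8.4% lay above and 8.46% below sham in the same way. A gene was called when its fold reached 1.5 with an unadjusted p no higher than 0.01, as the study set its limits. By that rule Arntl rose and Nr1d2 and Dbp fell, 1 gene up and 2 down of 10, beside 5.52% and 2.85% of all genes. The median log2 fold change of the 10 genes was -0.49, beside 0.01 over all genes tested. In edgeR's quasi-likelihood test none of the 10 passed 0.05 after Benjamini-Hochberg adjustment, as 0.0592% of all genes did, although 8 of the 10 had an unadjusted p under 0.05, as had 29.5% of all genes. DESeq2 placed 5 of the 10 under it (7.4% of all genes). The counts of called genes leaned on single libraries. Without any 1 of sham 2, sham 3, MIRI 1, MIRI 3, GXNI 2 or GXNI 3 there were 0 genes down, and without sham 2 or sham 3 also 0 up. Without MIRI 2 there were 5 genes down (4.76% of all genes) and without GXNI 1 there were 4 (5.7%). Without sham 1 there was 1 down, and Per1 joined Arntl as called up (2.19% of all genes).

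**Figure D1:**
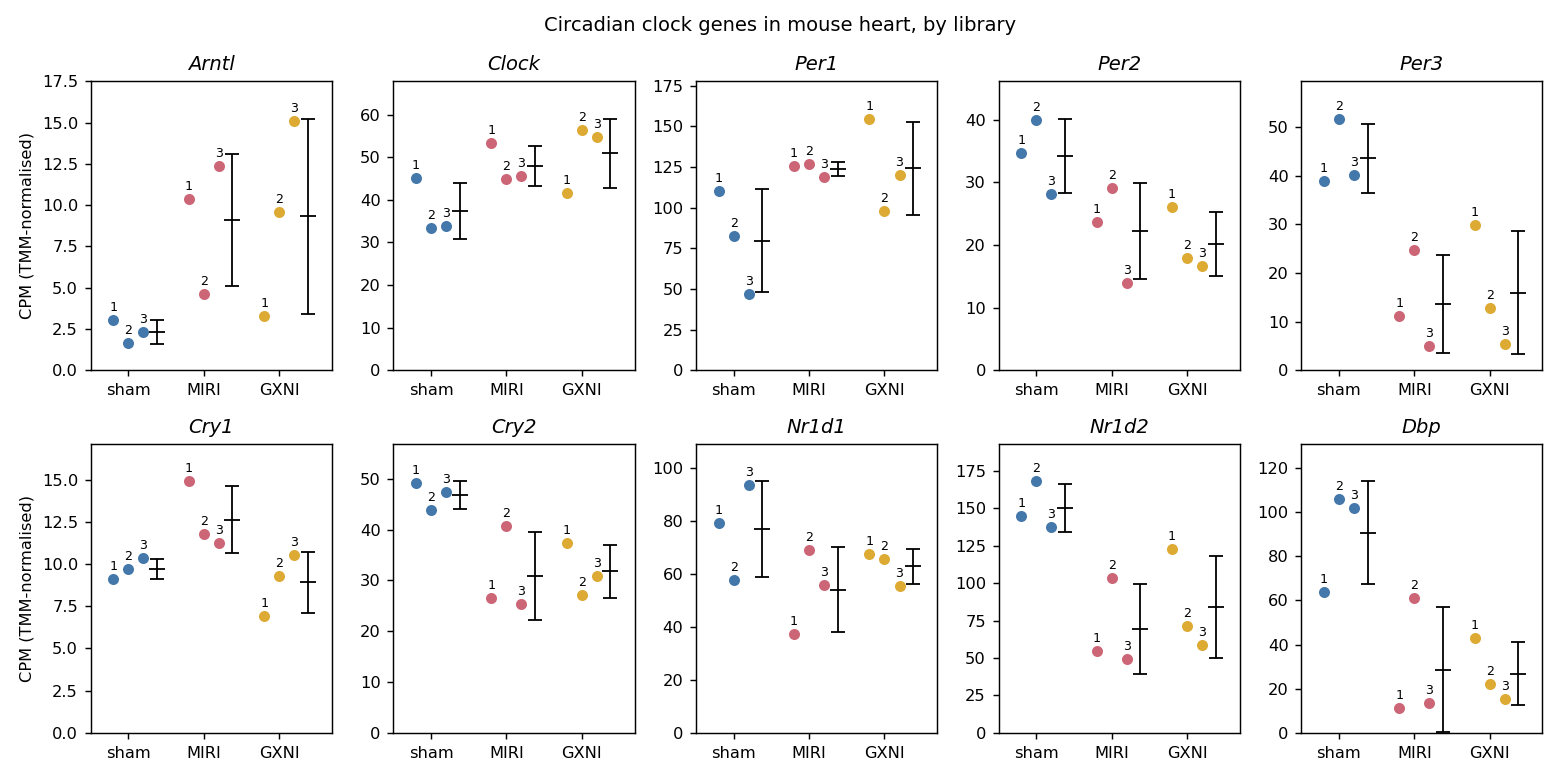
CPM of each of the 10 clock genes on a linear axis from 0, with 1 point for each library, numbered by its replicate, and the mean and SD of the 3 libraries of a group beside the points. Arntl lay above the sham libraries in all 6 MIRI and GXNI libraries and Per3, Cry2, Nr1d2 and Dbp below, while the MIRI and GXNI points overlapped for each of these genes.

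Arntl, the activator that the loop cannot run without, was the least abundant of the 10 in sham hearts. It measured 3.06, 1.63 and 2.29 CPM in sham, 10.4, 4.63 and 12.4 in MIRI, and 3.30, 9.61 and 15.1 in GXNI libraries. Even the lowest operated library, GXNI 1, stood above the highest sham library, by a narrow margin. The log2 fold change was 1.99 ± 0.49 (SE, 6 against 3 libraries; edgeR adjusted p = 0.0852, unadjusted 0.00251). The call was lost without sham 2 (1.78) or without sham 3 (1.97). With the libraries labelled MIRI 2 and GXNI 3 left out it was 1.94. In bulk tissue, more transcript per cell and a changed mix of cells cannot be told apart, here or for any gene below. Clock, its partner, measured 45, 33.4 and 33.9 CPM in sham, 53.3, 44.9 and 45.6 in MIRI and 41.6, 56.3 and 54.8 in GXNI libraries. The sham 1 library lay among the operated ones, and the log2 fold change of 0.40 ± 0.15 was not called (unadjusted p = 0.0212 in edgeR).

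Dbp, the output factor, showed the most negative fold change of the 10. It measured 63.8, 106 and 102 CPM in sham, 11.3, 61.2 and 13.5 in MIRI, and 43.0, 22.3 and 15.2 in GXNI libraries. MIRI 2 came within a few CPM of sham 1, whereas MIRI 1, MIRI 3 and GXNI 3 were the 3 lowest. Dbp fell by 1.71 ± 0.50 on the log2 scale (edgeR adjusted p = 0.0925, unadjusted 0.00695). Leaving out any 1 of sham 2, sham 3, MIRI 1, MIRI 3, GXNI 2 or GXNI 3 lost the call, with values between -1.65 and -1.54. Without MIRI 2 and GXNI 3 together the value was -2.01. Dbp shares 539 exon bases, 18% of its exon length, with Sphk2 on the opposite strand, and the strand setting of the counting is not given in the sources used here. Sphk2 held 300 to 537 counts in the 9 libraries.

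Nr1d2 (REV-ERB beta), a repressor of Arntl, went with Dbp. Its levels were 145, 168 and 137 CPM in sham, 55.0, 104 and 49.1 in MIRI, and 123, 71.4 and 58.4 in GXNI libraries. GXNI 1 and MIRI 2 were the operated libraries nearest to sham, without overlap. Nr1d2 fell by 0.97 ± 0.28 on the log2 scale (edgeR adjusted p = 0.0898, unadjusted 0.00622), and the call was lost when any 1 of sham 1, sham 2, sham 3, MIRI 1, MIRI 3, GXNI 2 or GXNI 3 was left out (-1.03 to -0.87). Nr1d1 (REV-ERB alpha), its paralog, did not separate. It measured 79.3, 57.5 and 93.4 CPM in sham, 37.2, 69.1 and 55.7 in MIRI and 67.5, 65.6 and 55.3 in GXNI libraries. Its log2 fold change was -0.39 ± 0.21 (unadjusted p = 0.0890 in edgeR). The difference between these paralogs was not tested. Nr1d1 shares 263 exon bases (8.5%) with Thra on the opposite strand.

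The Period genes encode inhibitors of the loop. Per3 was at 38.8, 51.7 and 40.1 CPM in sham, 11.1, 24.6 and 5.06 in MIRI, and 29.9, 12.7 and 5.34 in GXNI libraries. All 6 operated values were below sham, with GXNI 1 and MIRI 2 again closest, but the log2 fold change of -1.56 ± 0.51 missed the p threshold (unadjusted p = 0.0124, edgeR adjusted p = 0.104). Per2 was at 34.7, 39.9 and 28.1 CPM in sham, 23.6, 29.2 and 14.0 in MIRI and 26, 17.9 and 16.6 in GXNI libraries, with MIRI 2 above sham 3. Its log2 fold change was -0.69 ± 0.23 (unadjusted p = 0.0137 in edgeR). Per1, which also responds to stress hormones and cAMP, had the opposite sign. It was at 110, 82.4 and 46.6 CPM in sham, 126, 127 and 119 in MIRI, and 155, 97.7 and 120 in GXNI libraries, and sham 1 overlapped GXNI 2. The log2 fold change of Per1 was 0.64 ± 0.24 and was not called (unadjusted p = 0.0258 in edgeR).

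The Cryptochromes bind and silence the activator. Cry2 was at 49.1, 43.8 and 47.4 CPM in sham, 26.6, 40.7 and 25.3 in MIRI, and 37.4, 27.1 and 30.8 in GXNI libraries. The groups did not overlap, and the unadjusted p of 0.00547 passed in edgeR, but the fold of 1.49 was just under the limit of 1.5. Without MIRI 2 and GXNI 3 the log2 fold change moved from -0.58 ± 0.16 to -0.68 and was called, which made 3 genes down and 1 up, beside 3.24% and 6.6% of all genes. Cry1 was at 9.13, 9.70 and 10.3 CPM in sham, 14.9, 11.8 and 11.2 in MIRI, and 6.94, 9.31 and 10.5 in GXNI libraries. All MIRI values were above sham and the GXNI values overlapped it, and the log2 fold change over the 6 libraries was 0.15 ± 0.21 (unadjusted p = 0.501 in edgeR). The difference between Cry1 and Cry2 was not tested.

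Levels of different genes were compared as CPM per kilobase of exon. In sham hearts Dbp (30.3 ± 7.76, SD, n = 3), Nr1d2 (27.7 ± 2.95) and Nr1d1 (24.9 ± 5.88) led, and their ranges overlapped. Per1 (14.2 ± 5.67) came next, with its highest library inside the range of Nr1d1. Cry2 (7.40 ± 0.43), Per2 (5.85 ± 1.01) and Per3 (4.53 ± 0.74) followed, with Per2 overlapping Per3. Cry1 (2.91 ± 0.18) and Clock (2.73 ± 0.48) overlapped, and Arntl (0.31 ± 0.09) was the lowest. In MIRI hearts Per1 led at 22.0 ± 0.78, above Nr1d1 (17.6 ± 5.20), Nr1d2 (12.8 ± 5.52) and Dbp (9.57 ± 9.42), and Arntl was again last at 1.21 ± 0.53. In GXNI hearts Per1 (22.0 ± 5.10) was also first, and Arntl (1.24 ± 0.78) last, with Dbp at 8.96 ± 4.81. Per1 and Nr1d1 overlapped in both operated groups, and Nr1d2 also overlapped Per1 in GXNI hearts. By mean level per kilobase Dbp ranked 1 in sham and 4 in both operated groups.

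Against sham, each operated group was then read on its own. The same 3 sham libraries serve both comparisons. Arntl rose by 1.98 ± 0.42 on the log2 scale in MIRI and by 2.01 ± 0.56 in GXNI mice. Nr1d2 fell by 1.11 ± 0.29 in MIRI, and its value of -0.83 ± 0.28 in GXNI mice was not called. Dbp fell by 1.75 ± 0.40 in GXNI, and its value of -1.67 ± 0.65 in MIRI mice was not called, with MIRI 2 at 61.2 CPM beside 11.3 and 13.5 in the other libraries. Per3 was at -1.69 ± 0.51 and -1.44 ± 0.55, with neither called. Each comparison therefore called 1 gene up and 1 down, beside 6.15% and 2.82% of all genes in MIRI and 2.67% and 1.54% in GXNI mice. In edgeR none of the 10 passed an adjusted p of 0.05 in either, with 5 genes at an unadjusted p under 0.05 in MIRI mice (28.3% of all genes) and 7 in GXNI mice (19.8%). DESeq2 placed 4 and 2 of them under an adjusted 0.05, beside 7.26% and 2.98% of all genes. In MIRI mice the call of Arntl was lost without sham 2 (1.76) or sham 3 (1.96), and that of Nr1d2 without any 1 of the sham libraries, MIRI 1 or MIRI 3 (-1.18 to -0.93). In GXNI mice Dbp lost its call without sham 2 (-1.62), sham 3 (-1.66) or GXNI 2 (-1.63).

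**Figure D2:**
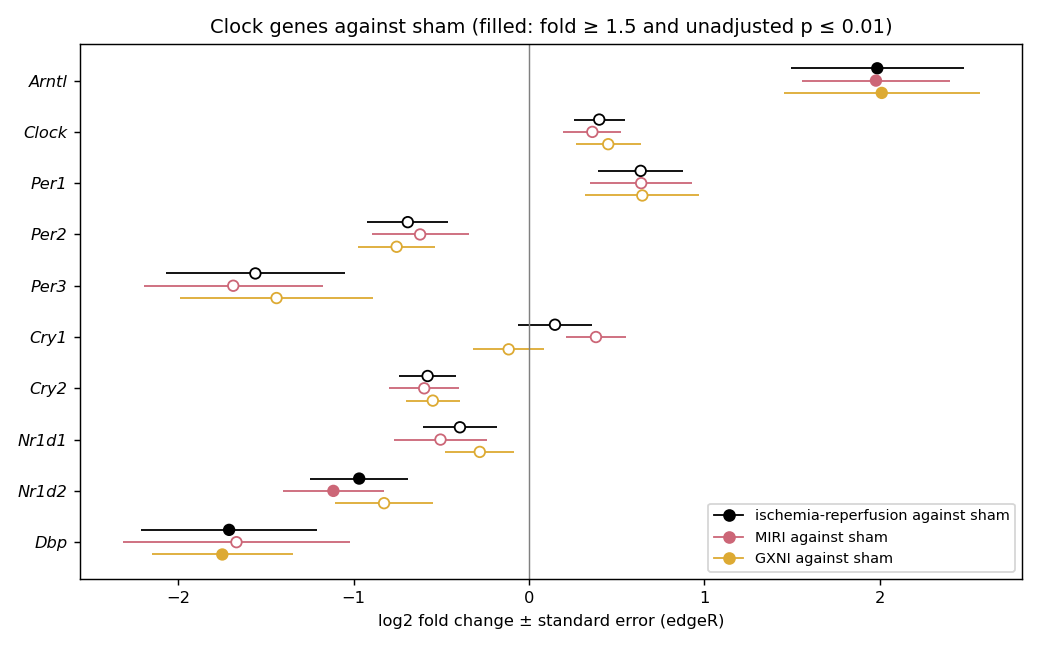
Log2 fold change of each clock gene against sham, with standard errors from edgeR, for the 6 operated libraries together and for MIRI and GXNI mice apart. Filled points passed the fold and p limits for a call, and Arntl passed in all 3 fits. Nr1d2 and Dbp both passed for the 6 operated libraries together, and apart from that Nr1d2 for MIRI mice and Dbp for GXNI mice.

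The MIRI comparison turned on 1 library. Without the library labelled MIRI 2, the 2 others gave 1 gene up and 5 down, beside 16.9% and 13.3% of all genes. Dbp was then at -2.87 ± 0.25, Per3 at -2.43 ± 0.32, Nr1d2 at -1.52 ± 0.13, Per2 at -0.86 ± 0.24 and Cry2 at -0.85 ± 0.11, and Arntl was at 2.29 ± 0.26. These are fits of 2 libraries against 3. In edgeR 7 of the 10 genes passed 0.05 after adjustment, as did 43.1% of all genes, and the adjusted p of Dbp was 0.000288, within 0.000288 to 0.345 over its alternatives. Without GXNI 3, GXNI against sham kept Dbp (-1.47 ± 0.34) and lost Arntl (1.48 ± 0.49), so that 0 were called up and 1 down, beside 2.11% and 1.46% of all genes. Arntl in GXNI mice also lost its call without any 1 of sham 1, sham 2, sham 3 or GXNI 2 (1.80 to 2.25). Without GXNI 1 the count of genes down went from 1 to 5 (Per2, Per3, Cry2, Nr1d2 and Dbp), and the share over all genes from 1.54% to 7.08%.

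GXNI was then set against MIRI, the comparison that asks what the injection changed in injured hearts. The labels of MIRI 2 and GXNI 3 may be exchanged, in which case the values below, and those of MIRI and GXNI against sham, do not compare the groups they name. With the deposited labels none of the 10 clock genes was called in either direction by edgeR, none had an unadjusted p under 0.05, and DESeq2 also called none. Over all genes edgeR called 0% up and 0.0203% down, with 47 genes at an unadjusted p under 0.05, and DESeq2 called 4 up and 7 down. The log2 fold changes were 0.04 ± 0.59 for Arntl, -0.09 ± 0.73 for Dbp, 0.24 ± 0.75 for Per3 and 0.29 ± 0.39 for Nr1d2. A difference of 1 on the log2 scale is under 3 of these standard errors for each of the 4 genes. Cry1, the gene with the lowest p, was at -0.49 ± 0.23 (unadjusted p = 0.0742 in edgeR). Without the libraries labelled MIRI 2 and GXNI 3, leaving 2 against 2, 1 of the 10 was called up and 0 down, beside 1.52% and 3.47% of all genes. That gene was Dbp, at 1.41 ± 0.34 (edgeR unadjusted p = 0.00590, adjusted p = 0.189, within 0.189 to 1 over its alternatives). Per3 was at 1.41 ± 0.53, Nr1d2 at 0.91 ± 0.28 and Arntl at -0.80 ± 0.48, none of them called. In that fit, the directions of Dbp and Arntl were opposite to those with all libraries. Without GXNI 3 or without MIRI 2 alone, Dbp was at 0.19 and 1.13.

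**Figure D3:**
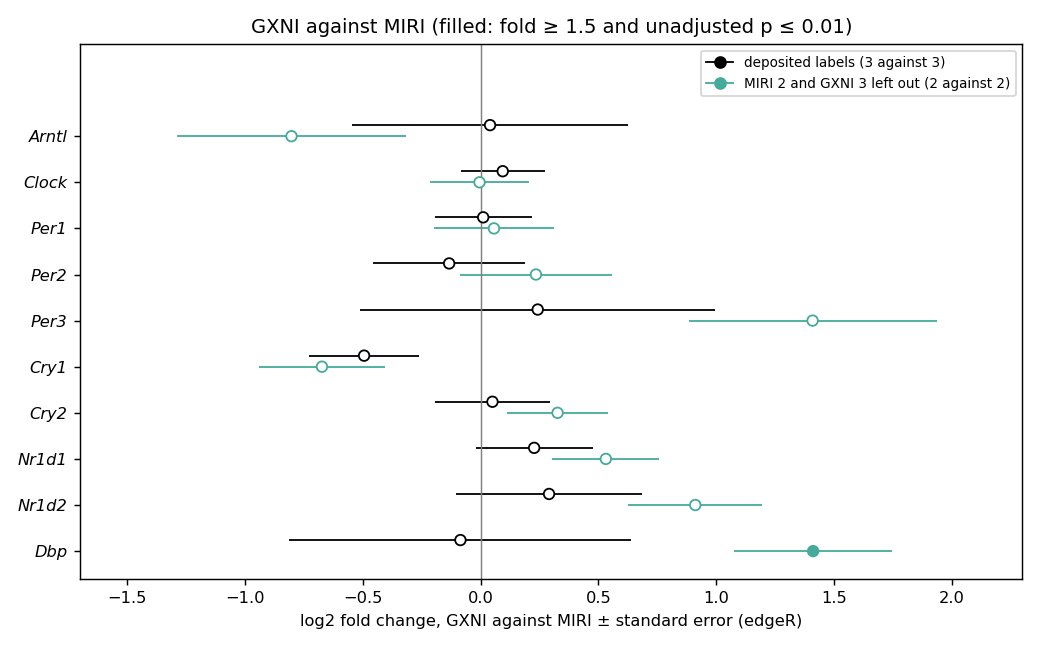
Log2 fold change of each clock gene in GXNI against MIRI mice, with standard errors from edgeR, with all 3 against 3 libraries as labelled and with MIRI 2 and GXNI 3 left out. No gene passed (filled point) with all libraries, and Dbp passed at 1.41 with the 2 libraries left out.

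The ratio of Arntl to Dbp puts both arms of the loop into 1 number for each heart. As the log2 ratio of CPM per kilobase of exon it was -5.71, -7.35 and -6.80 in sham, -1.46, -5.05 and -1.45 in MIRI, and -5.03, -2.55 and -1.34 in GXNI libraries. MIRI 2 and GXNI 1 stood closest to sham, GXNI 2 was between, and MIRI 1, MIRI 3 and GXNI 3 had the highest ratios, although Dbp remained above Arntl in all 9 libraries. Markers of neutrophils were also highest in MIRI 1, MIRI 3 and GXNI 3, with GXNI 2 between. Unlike for the ratio, GXNI 1 lay within the sham range and MIRI 2 below it. The 8 markers summed to 53.3, 28.9 and 54.9 CPM in sham, 653, 25.8 and 552 in MIRI, and 47.2, 202 and 580 in GXNI libraries. Only Fpr1 was at 0, in MIRI 2. The 8 cardiomyocyte markers were at 38333 to 41072 CPM in sham, 26548 to 42887 in MIRI and 27696 to 34389 in GXNI libraries, with MIRI 2 the highest. In ischemia-reperfusion against sham, edgeR called none of these 8 and none of the 7 neutrophil markers tested. Of them, 4 and 6 had an unadjusted p under 0.05, as had 29.5% of all genes. DESeq2 called 5 of the 8 neutrophil markers up and 1 cardiomyocyte marker, Myh6, down, beside 1519 and 677 of all 29344 genes. Without MIRI 2 and GXNI 3, edgeR also called 5 neutrophil markers up and Myh6 down, beside 6.6% and 3.24% of all genes. The part of these cells in the values of the clock genes was not tested.

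**Figure D4:**
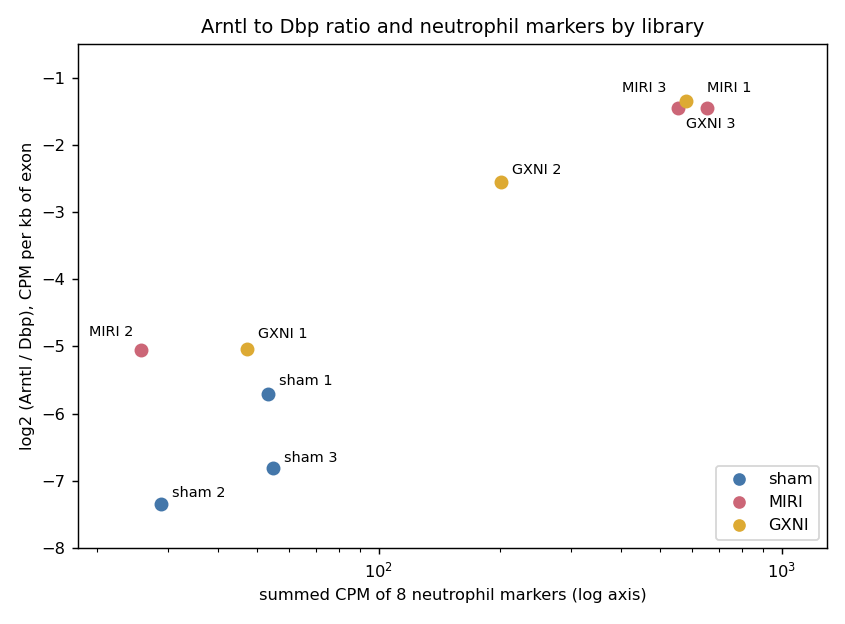
Log2 ratio of Arntl to Dbp, both as CPM per kilobase of exon, in each of the 9 libraries against the summed CPM of 8 neutrophil markers, on a log axis. MIRI 1, MIRI 3 and GXNI 3 lie together at ratios of -1.46, -1.45 and -1.34 with 552 to 653 CPM of neutrophil markers, and MIRI 2 and GXNI 1 lie near the sham libraries.

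Across the 9 libraries the log2 CPM of Arntl had a Pearson r of -0.97 with Nr1d2, -0.97 with Per3 and -0.95 with Dbp. With Per2 and Cry2 it was -0.89 each, and with Clock 0.88. It was weaker with Nr1d1 (-0.57), and positive with Per1 (0.46) and Cry1 (0.43). Nr1d2 and Dbp had 0.96. Outside the list, Col4a2 (r = 0.99), which encodes a collagen IV chain, Actn1 (0.99), an actinin, and Rcan1 (0.99), a calcineurin regulator, were closest to Arntl among 15207 genes. Fkbp3 (0.99), Ldhb (0.99), a lactate dehydrogenase subunit, and 3425401B19Rik (0.99) were closest to Dbp. The libraries fall into clusters and share their groups, so these values describe the 9 libraries only.

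A list of 31 other clock genes was read in the same way. In ischemia-reperfusion against sham 2 rose (Nfil3 and Tspan4) and 3 fell (Ciart, Tef and Kcnip2), against the same 5.52% and 2.85% of all genes, and edgeR put none under 0.05 after adjustment, with 13 at an unadjusted p under 0.05 (29.5% of all genes). DESeq2 placed 6 of the 31 under an adjusted 0.05 (7.4% of all genes). The median log2 fold change of the 31 was -0.04. Among 10 activators and repressors, Nfil3, the D-box repressor that opposes DBP, measured 8.05, 5.30 and 7.67 CPM in sham, 41.3, 17.8 and 55.0 in MIRI, and 16.7, 18 and 55.2 in GXNI libraries. All 6 were above sham, and Nfil3 rose by 2.28 ± 0.50 on the log2 scale (unadjusted p = 0.00107 in edgeR). Ciart, a repressor of the activator, fell by 1.37 ± 0.38. Rora was below sham in all 6 libraries but was not called (-0.45 ± 0.16).

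Tef and Hlf are the PAR-bZIP relatives of Dbp. Tef measured 240, 271 and 233 CPM in sham, 73.9, 175 and 57.2 in MIRI, and 158, 107 and 56.1 in GXNI libraries, all 6 below sham, and fell by 1.25 ± 0.36. Hlf measured 32.3, 39.7 and 32.5 CPM in sham, 7.82, 26.6 and 5.19 in MIRI, and 32.4, 8.18 and 6.10 in GXNI libraries. GXNI 1 lay among the sham libraries, and the value of -1.28 ± 0.57 was not called. Among 6 clock-controlled outputs, Kcnip2, the KChIP2 subunit of the cardiac transient outward potassium channel, measured 168, 147 and 163 CPM in sham, 30.6, 69.2 and 26.9 in MIRI, and 74.7, 43.7 and 30.01 in GXNI libraries. It fell by 1.80 ± 0.32 (unadjusted p = 0.000261 in edgeR), with no overlap between groups. Tspan4, a tetraspanin, rose by 0.85 ± 0.25. None of the 9 genes of protein stability and kinases and none of the 4 partners was called. Of them, 4 and 1 had an unadjusted p under 0.05, beside 29.5% of all genes. In MIRI against sham 1 of the 31 rose and 3 fell, beside 6.15% and 2.82% of all genes. In GXNI against sham 3 rose and 1 fell of 30 tested, beside 2.67% and 1.54% of all genes. In GXNI against MIRI none was called by edgeR or DESeq2, with 0 at an unadjusted p under 0.05 (47 of all 14762 genes in edgeR). In edgeR without MIRI 2 and GXNI 3, MIRI against sham called 5 up and 9 down (16.9% and 13.3% of all genes). GXNI against sham then called 1 up and 2 down of 31 tested (2.11% and 1.46%). GXNI against MIRI called 3 up (Tef, Usp2 and Klf15) and 2 down (Bhlhe40 and Nfil3), beside 1.52% and 3.47% of all genes. Of the 31, 9 had an unadjusted p under 0.05 there, as had 2859 of all 14984 genes.

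**Figure D5:**
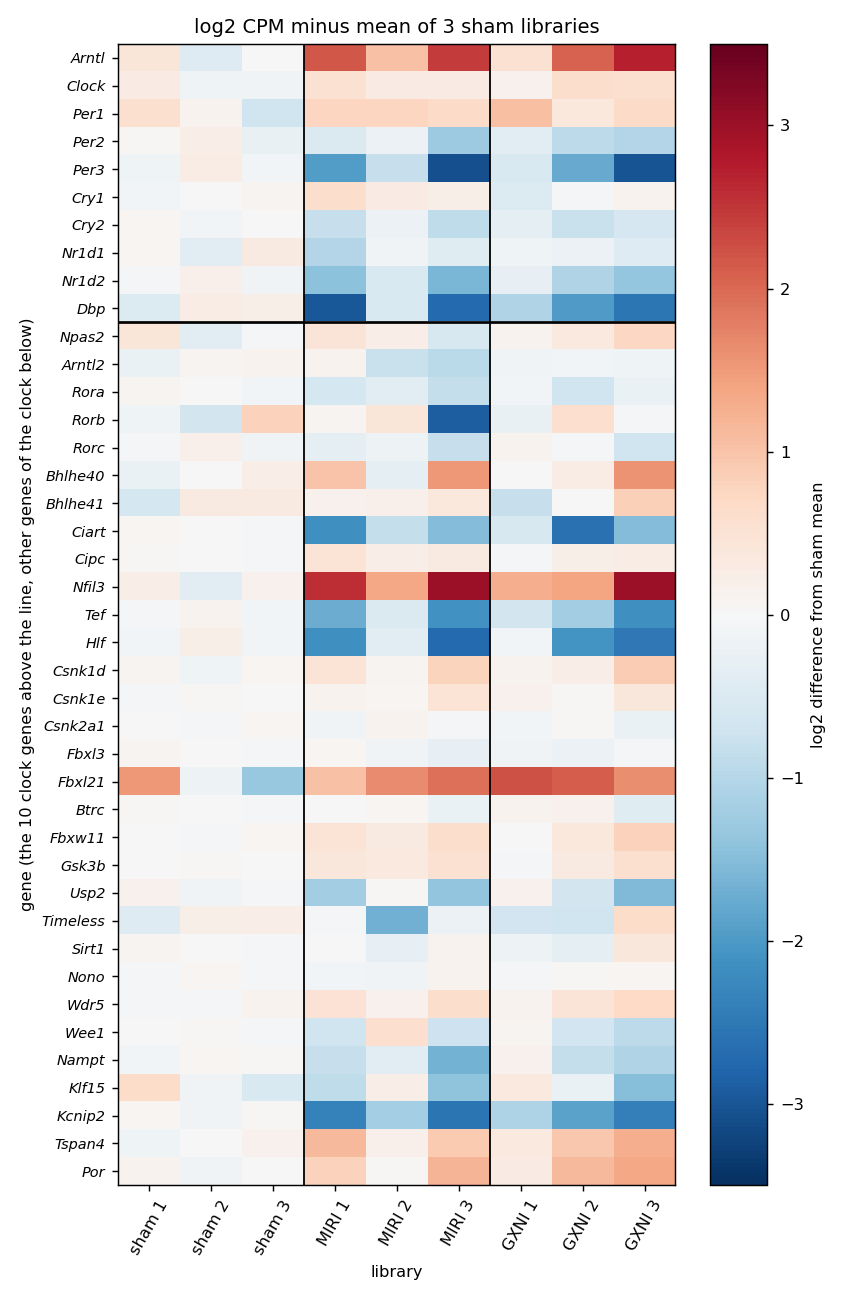
Log2 CPM of the 10 clock genes (above the line) and 31 other genes of the clock (below it) in each library, minus the mean of the 3 sham libraries. Arntl and Nfil3 are red and Dbp, Per3, Nr1d2, Tef and Kcnip2 blue in the operated libraries, most in MIRI 1, MIRI 3 and GXNI 3 and least in MIRI 2 and GXNI 1.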

How the data were processed

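Counts of reads per gene were deposited by the authors for 9 heart libraries. Per the submitters' processing notes and the study's methods, reads were aligned with HISAT2 to mm10 and counted with featureCounts (Subread), and DESeq2 was used. Versions are not given in the sources used here. Of 54532 gene IDs, 54409 had a symbol, and 0 columns belonged to other samples.

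Each comparison was fitted on its own libraries with edgeR 4.0.16 in R 4.3.3 (TMM factors, filterByExpr, quasi-likelihood F test), without a replicate block. Benjamini-Hochberg values cover all genes tested. SE is the log2 fold change over the root of F. Log2 CPM used a prior count of 0.5. Alternatives were DESeq2 1.42.0, RLE factors, no filter, mitochondrial genes left out, 1 fit of all libraries, a replicate block, an adjusted threshold, each library left out, and MIRI 2 and GXNI 3 left out. A fit with the labels of MIRI 2 and GXNI 3 exchanged was also tried after the values were seen, because the study's supplementary gene tables followed that grouping. It was dropped and is not reported, because it groups libraries by their measured values.

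The 10 members and all lists were chosen with earlier results of these data known. Named genes were all members, the list of 31, and the 3 genes most correlated with Arntl and with Dbp. Hlf, Rora and the genes named with values from the list were picked for their values. On simulated counts with 200 genes changed by 2 on the log2 scale, edgeR recovered 200 of 200 in ischemia-reperfusion against sham (15041 genes) and called 0.842% of unchanged genes. The simulation gave all genes the same dispersion, changed only well-expressed genes and put no shared spread into the libraries. It checks the code, and cannot give the power or error rate for libraries that differ as these do. No libraries of a group agreed within counting noise (smallest chi-square per degree of freedom 13.2). A count of 3 corresponds to 0.132 to 0.175 CPM, which covers counting error only. Figures were drawn with matplotlib 3.10.9.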

Additional observations from a re-analysis of the deposited data

Results flagged for a closer look

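Nr1d1 in MIRI 1 stood apart as the lowest of the 6 operated libraries. On the log2 CPM scale its gap to the next library was 0.641 of the whole range, above Dixon's 95% critical value of 0.625 for 6 samples. Both ends of the 6 libraries were examined in each of 10 genes, and chance flags about 1 in 20 groups. No other clock gene passed this limit.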

How the results depend on the processing

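With 3 libraries a group and MIRI and GXNI libraries that did not sort by label, the counts of called genes were small and moved with the processing, while the directions against sham did not reverse under any alternative, except that Cry1 in GXNI mice went to 0.039 without GXNI 1. The cause of each change was not tested.

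In ischemia-reperfusion against sham (1 up, 2 down), DESeq2 and no filter gave 4 down, 1 fit of all 9 libraries 1 down, and an adjusted p of at most 0.05 gave 0 up and 0 down. Over all genes, DESeq2 called 677 of 29344 down, no filter 656 of 29344 and the 1 fit 380 of 15207. Leaving out 1 library gave 0 to 2 up and 0 to 5 down, beside 254 to 1466 and 209 to 858 over all genes. In MIRI against sham (1 up, 1 down), DESeq2 and no filter gave 3 down, 1 fit of all libraries 0 down, MIRI 2 and GXNI 3 left out 5 down, and the adjusted p 0 up and 0 down. Over all genes, DESeq2 called 760 of 27901 down, no filter 803 of 27901 and the 1 fit 265 of 15207. Leaving out 1 library gave 0 to 1 up and 0 to 5 down, beside 340 to 2571 and 174 to 2021 over all genes. In GXNI against sham (1 up, 1 down), DESeq2 and no filter gave 4 down, 1 fit of all libraries 0 down, MIRI 2 and GXNI 3 left out 0 up, and the adjusted p 0 up and 0 down. Over all genes, DESeq2 called 407 of 27966 down, no filter 426 of 27966 and the 1 fit 142 of 15207. Leaving out 1 library gave 0 to 1 up and 0 to 5 down, beside 83 to 1603 and 90 to 1062 over all genes. In GXNI against MIRI (0 up), MIRI 2 and GXNI 3 left out gave 1 up.

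The replicate block gave 2 up and 4 down in ischemia-reperfusion, 3 down in MIRI and 0 up and 2 down in GXNI against sham. Over all genes the block called 901 up and 600 down of 15207 in ischemia-reperfusion. It called 367 down of 14644 in MIRI, and 342 up and 231 down of 14695 in GXNI against sham. Deviations of same-numbered libraries from their group means correlated at -0.45, 0.13 and 0.70 between MIRI and GXNI, and at -0.09 to 0.12 with sham. With 3 libraries a group and 2 labels in doubt, these values cannot settle whether the numbers pair the samples. In GXNI against MIRI the block reversed Arntl (-0.062), Per1 (-0.014) and Dbp (0.22).

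Other reversals in GXNI against MIRI came with MIRI 2 and GXNI 3 left out in Arntl (-0.80), Clock (-0.0045), Per2 (0.23) and Dbp (1.41), and with DESeq2 in Per1 (-0.0002). Leaving out 1 library in turn moved Arntl between -0.49 and 0.44, Per1 between -0.19 and 0.16, Per2 between -0.39 and 0.11, Per3 between -0.59 and 0.997, Cry2 between -0.090 and 0.304, Nr1d2 between -0.092 and 0.706 and Dbp between -0.61 and 1.13. Cry1 in GXNI against sham moved between -0.25 and 0.039.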
